A study of Arabidopsis thaliana with 12 samples.

Results

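PRA1.B6 (AT5G07110), a prenylated Rab acceptor of membrane traffic, and SECE1 (AT4G14870), the SecE subunit of the thylakoid Sec translocase, are described here in Arabidopsis thaliana plants kept at high CO2 and in plants at normal CO2. Each of these 2 genes had 1 probe annotated to it alone, among 692 such single-gene probes and 3439 probes in all, so the brightest probe of each gene was also its only one. Neither gene appeared among the genes of a probe shared by several. Both genes were picked because their intensities had moved in opposite directions between the 2 groups of samples. Their differences between the groups are therefore given as a description without a test, and they support nothing further.

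PRA1 proteins are small membrane proteins with long hydrophobic stretches that bind prenylated Rab GTPases, the switches that direct vesicles to their target membranes. In yeast and mammals they are known for helping Rab proteins leave their soluble carrier, GDI, and enter a membrane. The Arabidopsis family is large, and PRA1.B6 has been placed at the Golgi apparatus and tied to the forward traffic of secreted and membrane proteins. Its array signal does not say how much of that traffic there is. SECE1 works inside the chloroplast. Together with the channel protein SCY1 and the motor ATPase SECA1 it forms the Sec translocase, which moves unfolded proteins such as plastocyanin and the PSBO subunits of photosystem II across the thylakoid membrane. Plants that lack this translocase cannot build working thylakoids.

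Total RNA was taken from wild-type Columbia 0 plants. The high-CO2 group held 6 samples of plants that spent their last 6 d at 1% (v/v) CO2, and the normal-CO2 group held 6 samples labelled 0 d. The CO2 level and the time therefore differ together and cannot be told apart. The labels name no organ, age or growth light, and are silent on whether samples of 1 group are separate plants, so the spread between them may be technical. In such bulk RNA, fewer cells of a type and less RNA per cell cannot be told apart.

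Deposited values were array intensities on a scale that ended at 100 in every sample, with 133 to 398 of the probes listed at 0. The median deposited intensity of a sample lay between 0.174 and 0.390 in the high-CO2 group and between 0.160 and 0.256 in the normal-CO2 group. Values were therefore quantile normalized before comparison, and those under a floor of 0.0398 were raised to it before taking log2. Within each group, samples 1 and 2 were most alike, and so were 3 and 4, and 5 and 6, as repeats would be. In both groups the medians of samples 5 and 6 lay outside the range of the other 4, and differences are given with and without these samples. The other pairs were not left out in turn. Of 16 marker genes of leaf, root, guard cell, phloem and flower, 0 had a probe of their own. A leaf marker, 1 of the 16, was on a shared probe only. The organ was therefore not checked.

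The PRA1.B6 probe was brighter in every high-CO2 sample than in any normal-CO2 sample. Its normalized intensity had a median of 0.978 over the high-CO2 samples (lowest 0.737, highest 1.2), against a median of 0.277 over the normal-CO2 samples (lowest 0.0792, highest 0.344). The groups did not overlap, as was true of 3.55% of the 3349 probes tested in this direction. All 12 values lay above the floor of 0.0398, but normal-CO2 samples 5 and 6, at 0.108 and 0.0792, were near it. Group means were 0.969 ± 0.186 for high CO2, against 0.233 ± 0.112 for normal CO2 (SD, n = 6 each).

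The samples of a group were not alike in PRA1.B6. Means over the pairs of like samples 1 and 2, 3 and 4, and 5 and 6 were 0.978, 1.17 and 0.759 at high CO2. At normal CO2 the same pairs had 0.329, 0.277 and 0.0938. Samples 5 and 6 were thus the lowest in both groups, and those at normal CO2 lay far under the rest of their group. Partners within a pair differed by at most 0.45 on the log2 scale, whereas the 6 normal-CO2 samples spanned 2.12 on that scale and the 6 high-CO2 samples spanned 0.70. The closest samples of the 2 groups lay 1.1 apart on the log2 scale. That was more than between any partners, but less than the span of the normal-CO2 samples.

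SECE1 showed the reverse order. The SECE1 probe had a median normalized intensity of 0.320 over the high-CO2 samples (lowest 0.177, highest 0.388), against 0.673 over the normal-CO2 samples (lowest 0.521, highest 0.903). Again the groups did not overlap, as was true of 4.75% of the probes tested in this direction, and all 12 values lay above the floor. Group means were 0.292 ± 0.0812 for high CO2, against 0.698 ± 0.156 for normal CO2 (SD, n = 6 each).

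For SECE1 the lowest pair differed between the groups. The pairs 1 and 2, 3 and 4, and 5 and 6 averaged 0.358, 0.194 and 0.325 at high CO2. At normal CO2 they averaged 0.882, 0.673 and 0.539. Samples 3 and 4 were lowest at high CO2, and samples 5 and 6 were lowest at normal CO2. Partners differed by at most 0.25 on the log2 scale, against a span of 1.13 over the high-CO2 samples and 0.79 over the normal-CO2 samples. The closest samples of the 2 groups lay 0.42 apart.

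**Figure D1:**
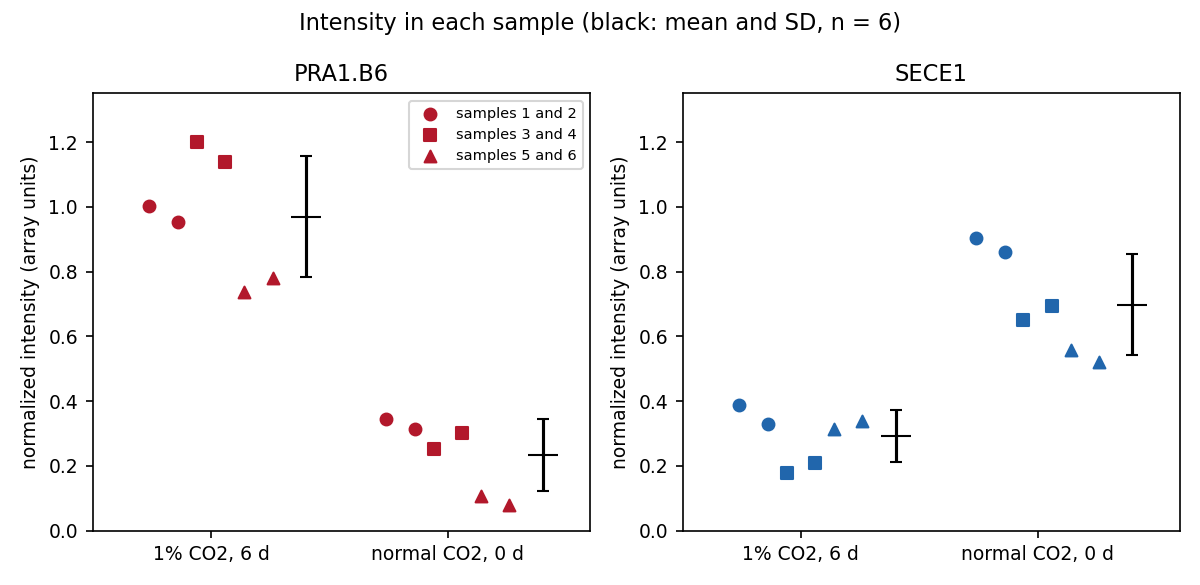
Normalized array intensity (vertical axis, array units, from 0) of the PRA1.B6 probe (left) and the SECE1 probe (right) in each sample, with plants at 1% CO2 for 6 d left of plants at normal CO2, 0 d. Marker shapes show the pairs of like samples and black bars the mean and SD (n = 6). PRA1.B6 averaged 0.969 at high CO2 and 0.233 at normal CO2, and SECE1 averaged 0.292 at high CO2 and 0.698 at normal CO2, with no overlap of the groups in either gene.

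The deposited values, before any scaling, showed the same separation by a smaller margin for SECE1. PRA1.B6 had 0.599 to 1.33 at high CO2 and 0.0810 to 0.243 at normal CO2 as deposited. SECE1 had 0.232 to 0.498 at high CO2 and 0.537 to 0.785 at normal CO2. Over all 3439 probes, 5.47% had every high-CO2 sample above every normal-CO2 sample as deposited, and 2.15% had every high-CO2 sample below. The nearest SECE1 samples of the 2 groups were 0.11 apart on the log2 scale, less than the 0.19 by which its partners could differ, while for PRA1.B6 the nearest samples were 1.3 apart. High-CO2 samples 5 and 6, whose medians of 0.174 and 0.175 were the lowest of their group, held its lowest deposited values for both genes. At normal CO2 the values did not follow the medians: samples 5 and 6 had the highest medians, 0.256 and 0.255, and the lowest deposited PRA1.B6 values, 0.107 and 0.0810.

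Scaling changed which samples were extreme. With each sample divided by its median, PRA1.B6 at high CO2 lay within the narrow range of 0.793 to 0.878, and SECE1 at high CO2 ran from 0.200 to 0.372. The normal-CO2 ranges on that scale were 0.0823 to 0.348 for PRA1.B6 and 0.585 to 1.12 for SECE1. High-CO2 samples 5 and 6 were thus well below samples 1 to 4 in PRA1.B6 as deposited, and near them after division by the median. The low PRA1.B6 values of normal-CO2 samples 5 and 6 were seen on each of the 3 scales.

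The place of a probe among all probes of its own sample needs no scaling. Quantile normalization sets values by this place, so ranks and normalized values are not separate evidence. By deposited intensity, PRA1.B6 ranked between 387 and 639 from the brightest at high CO2 and between 1332 and 2764 at normal CO2. In other terms, 81.4% to 88.7% of the probes in a sample were dimmer at high CO2 and 19.6% to 61.3% at normal CO2. At normal CO2 PRA1.B6 therefore sat near the middle of the array in samples 1 to 4, with ranks of 1332 to 1694, and in its dim part in samples 5 and 6, with ranks of 2565 and 2764. SECE1 ranked between 1200 and 2106 at high CO2 and between 519 and 910 at normal CO2. The share of dimmer probes for SECE1 was 38.8% to 65.1% at high CO2 and 73.5% to 84.9% at normal CO2. Neither gene's ranks overlapped between the groups, as was true of 3.49% of all probes with brighter ranks at high CO2 and 4.71% with dimmer ranks there. As deposited, after division by the median and by rank at once, 1.31% of all probes had separate groups with high CO2 above, as PRA1.B6 did, and 1.6% with high CO2 below, as SECE1 did.

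Among the 691 genes with a probe of their own, PRA1.B6 ranked 69 to 91 at high CO2 and 225 to 532 at normal CO2. The SECE1 ranks among these genes were 209 to 406 at high CO2 and 81 to 142 at normal CO2. The probes of the pair thus changed places: PRA1.B6 had the brighter rank in all 6 high-CO2 samples and SECE1 in all 6 normal-CO2 samples. A rank orders probes by their signal, and probes differ in how strongly they bind, so it does not say which transcript was more abundant.

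**Figure D2:**
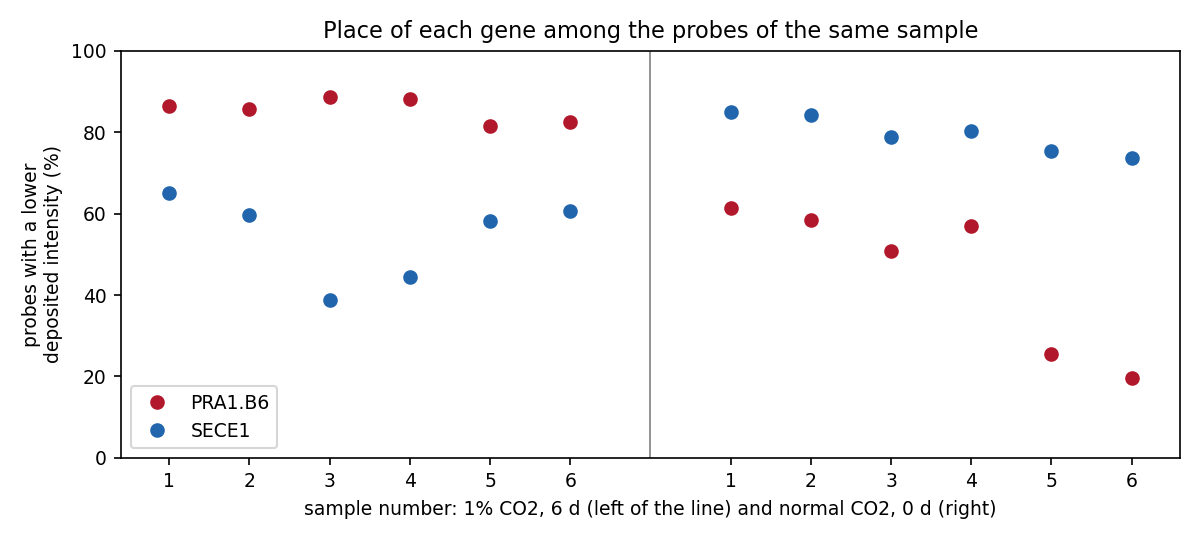
Share of the 3439 probes of the same sample with a lower deposited intensity (vertical axis, percent) for PRA1.B6 (red) and SECE1 (blue), by sample number, with the 6 samples at 1% CO2 left of the line and the 6 at normal CO2 right of it. PRA1.B6 lies above SECE1 in the high-CO2 samples and below it in the normal-CO2 samples, and its lowest places, 25.4% and 19.6%, are normal-CO2 samples 5 and 6.

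On the log2 scale PRA1.B6 was 2.23 higher at high CO2 (SE 0.36), which is 4.69 times its normal-CO2 level. SECE1 was lower by a log2 difference of -1.28 (SE 0.23), at 0.412 times its normal-CO2 level. Both SEs count the samples of a group as independent, which the likeness within pairs goes against. Over the 3349 probes the median log2 difference was -0.02, and the 5th and 95th percentiles were -1.08 and 1.12. 7 probes had a larger positive difference than PRA1.B6, 3 of them among the 668 tested genes with a probe of their own. 86 probes had a larger negative difference than SECE1, 14 of them among those genes. The PRA1.B6 difference thus lay at the edge of the distribution and the SECE1 difference further inside it.

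**Figure D3:**
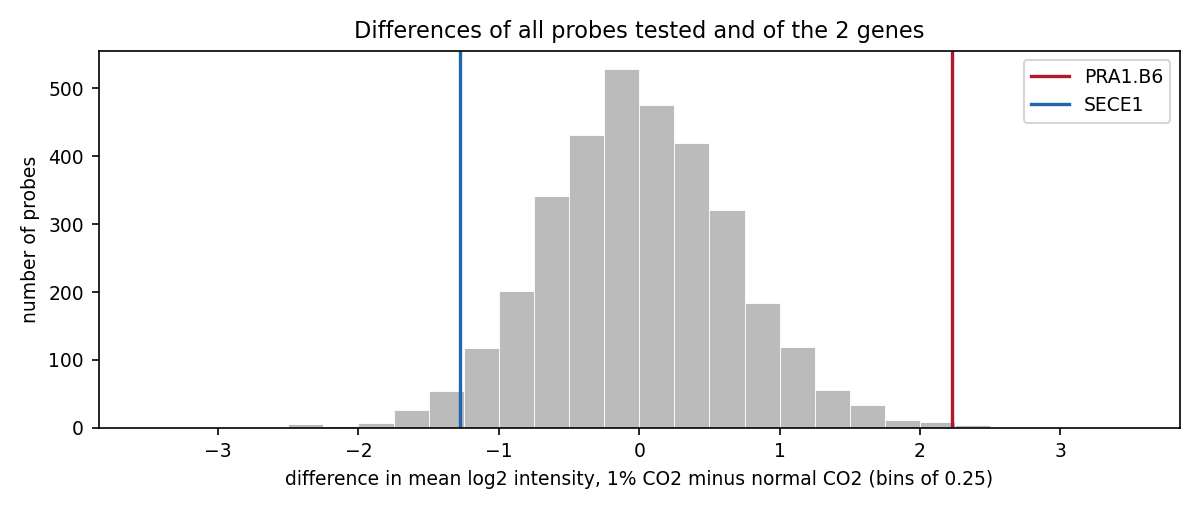
Number of probes (vertical axis) by difference in mean log2 normalized intensity, 1% CO2 minus normal CO2 (horizontal axis, bins of 0.25), over the 3349 probes tested. The red line marks PRA1.B6 at 2.23 and the blue line SECE1 at -1.28, both of which were chosen for this difference.

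The ratio of the PRA1.B6 to the SECE1 signal within a sample is free of any factor that scales a whole sample. It does not compare the levels of the 2 transcripts, but its change between samples shows that they changed unequally. As deposited, the log2 ratio lay between 1.17 and 2.13 in high-CO2 samples, and between -2.83 and -1.51 in normal-CO2 samples. Its mean was 1.53 ± 0.38 for the high-CO2 group, against -2.01 ± 0.54 for the normal-CO2 group (SD, n = 6 each). The difference of 3.54 is 11.6-fold, with an SE of 0.27 that counts like partners as separate samples. At high CO2 samples 3 and 4 had the highest ratios, 2.13 and 1.88, and the other 4 lay between 1.17 and 1.37. At normal CO2 samples 5 and 6 had the lowest, -2.54 and -2.83, and the other 4 lay between -1.79 and -1.51.

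The size of each difference depended on the samples used. Its direction was the same in every setting run, which the separate groups fix when samples are left out. In samples 1 to 4 of each group the normalized log2 difference was 1.83 for PRA1.B6 and -1.55 for SECE1. In samples 5 and 6 alone it was 3.03 for PRA1.B6 and -0.73 for SECE1. PRA1.B6 thus differed more in samples 5 and 6 than in samples 1 to 4, and SECE1 less. With values as deposited this order turned for SECE1, with a difference of -0.76 in samples 1 to 4 and -1.31 in samples 5 and 6. For PRA1.B6 the deposited differences were 2.53 in samples 1 to 4 and 2.71 in samples 5 and 6. Whether the blocks differ was not tested, and same-numbered samples of the 2 groups were not taken to belong together.

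Scaling moved both values the same way. Without scaling, where the median log2 difference over all probes was itself 0.45, the log2 difference was 2.59 for PRA1.B6 and -0.94 for SECE1. Relative to that shift they were 2.14 and -1.39. After division by the sample median the differences were 2.05 for PRA1.B6 and -1.48 for SECE1, with a median shift of -0.04. Leaving out 1 sample at a time gave 1.96 to 2.38 for PRA1.B6 and -1.37 to -1.14 for SECE1. The lowest PRA1.B6 value came without normal-CO2 sample 6, and the SECE1 value nearest 0 came without high-CO2 sample 3.

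**Figure D4:**
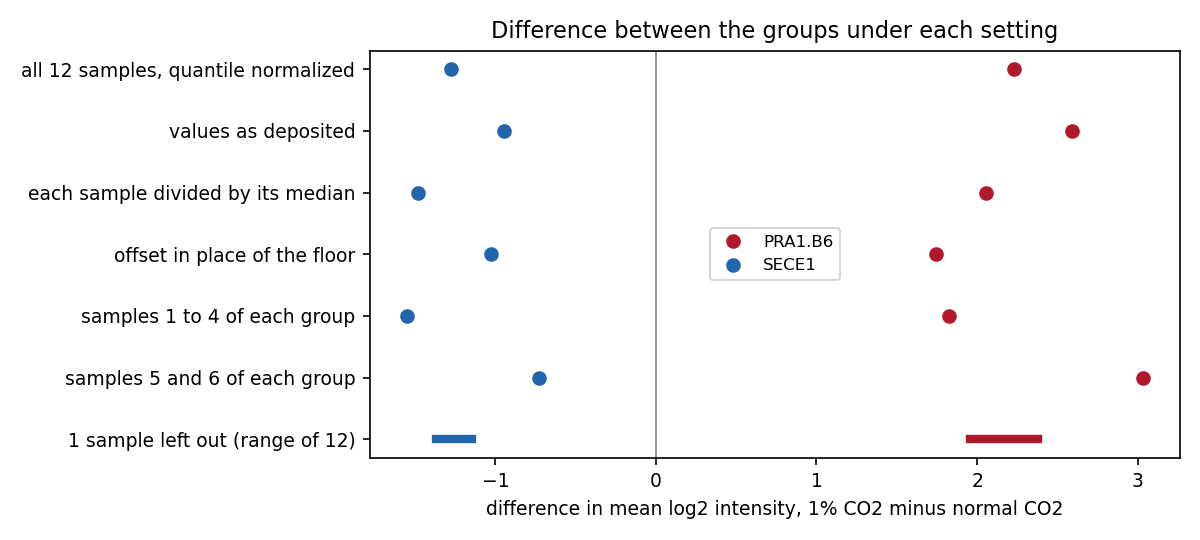
Difference in mean log2 intensity, 1% CO2 minus normal CO2 (horizontal axis), for PRA1.B6 (red) and SECE1 (blue) under each setting (rows), with the bar in the last row spanning the values with 1 sample left out. PRA1.B6 stays between 1.75 and 3.03 and SECE1 between -1.55 and -0.73.

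Other genes of the pathways came from lists of 159 genes on Rab-dependent traffic and on the routes into the plastid and the thylakoid. Only 8 of the 159 had a probe of their own, PRA1.B6 and SECE1 among them. Of the 6 others, 1 rose, 0 fell and 5 did not pass in the limma test over all probes at an adjusted p of 0.05, a threshold that 12.5% of all probes tested passed, 5.52% as higher and 6.96% as lower at high CO2. The 1 that rose did not pass over pair means or with the pairs as a random block, where 0 of the 3349 probes passed. At an unadjusted p under 0.05 over 12 samples the counts were also 1 higher and 0 lower of 6 genes, where 30.2% of all probes lay under that p. No list held enough measured genes to describe a pathway. The Rab GTPases and their regulators (49 genes), the SNAREs and coat factors of vesicle fusion and budding (26 genes) and the import complexes of the envelope (15 genes) each had 0 genes with a probe of their own.

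In the PRA1 family of 19 genes, PRA1.B3 was the 1 further member with a probe of its own. PRA1.B3 had a normalized intensity of 0.0381 to 0.214 with a median of 0.164 at high CO2, and of 0.0629 to 0.132 with a median of 0.0933 at normal CO2. The groups overlapped, with a log2 difference of 0.30 (SE 0.43, limma adjusted p = 0.672). The overlap came from high-CO2 samples 5 and 6, at 0.0381 and 0.0499, the first of them under the floor. The other 4 high-CO2 samples lay between 0.153 and 0.214. Without samples 5 and 6 of both groups the PRA1.B3 difference was 0.95 and passed (limma adjusted p = 0.0159). In that fit 37.9% of all probes passed, and like partners counted as separate samples. Over pair means of all samples PRA1.B3 did not pass (limma adjusted p = 0.847), nor did any probe. With values as deposited its difference over all samples was also 0.95 but did not pass (limma adjusted p = 0.436).

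A further 6 genes of the PRA1 family were measured only on probes shared among relatives, whose signal belongs to no single gene. 3 such probes carried only genes of subgroup B, to which PRA1.B6 and PRA1.B3 belong. The brightest of these had 1.13 ± 0.330 in high-CO2 samples, against 0.809 ± 0.276 in normal-CO2 samples (SD, n = 6 each; log2 difference 0.50, limma adjusted p = 0.232). The other 2 had log2 differences of 0.63 (adjusted p = 0.382) and 0.05 (adjusted p = 0.957). None of these 3 shared probes passed (0 had an unadjusted p below 0.05). Over all probes tested 12.5% passed in limma, and 30.2% had an unadjusted p below 0.05. The 3 differences lay under the 2.23 of PRA1.B6, which was picked for its difference, so this comparison says nothing on the family. The shared probe of subgroup G lay at or under the floor in 11 of 12 samples. Whether the PRA1.B6 probe also binds transcripts of its relatives was not tested.

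Of the thylakoid Sec translocase, SECE1 was the 1 subunit of 3 with a probe of its own, so its partners SCY1 and SECA1 were not analysed here. The list for the second Sec system of the plastid, in the inner envelope, had 1 gene of 3 with such a probe, AT4G38490. That probe lay at or under the floor in 4 high-CO2 and 4 normal-CO2 samples, and no difference was detectable at this level of signal (log2 difference -0.06, SE 0.72, limma adjusted p = 0.968). Its sign turned with values as deposited, to 0.07. The signal recognition particle and ALB3 route (5 genes), the Tat route (3 genes) and the processing peptidases with VIPP1 (4 genes) had 0 genes with a probe of their own.

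The proteins that enter the thylakoid can be grouped by their route. Of the 5 Sec passengers, those that SECE1 itself would serve, 0 had a probe of their own. LHB1B2, a chlorophyll-binding antenna protein inserted through the signal recognition particle route, rose in the limma test (log2 difference 1.04, adjusted p = 0.00261). Its call ended after division by the sample median, with a log2 difference of 0.40 (adjusted p = 0.303), over pair means (adjusted p = 0.4075) and with pairs as a random block (adjusted p = 0.0993). PSAN, a lumenal subunit of photosystem I carried by the Tat route, did not pass (log2 difference -0.27, limma adjusted p = 0.312). PSBW and PSBY, small photosystem II subunits that insert without a translocase, did not pass either, with log2 differences of 0.32 (limma adjusted p = 0.364) and -0.29 (adjusted p = 0.506). After division by the sample median the sign of PSBW turned, to -0.08, and the log2 differences of PSAN and PSBY were -0.95 (limma adjusted p = 0.074) and -0.85 (adjusted p = 0.192). Over samples 1 to 4 of each group PSAN and PSBY passed as lower, at -0.43 and -0.82 (limma adjusted p = 0.0112 and 0.00816). In that fit 37.9% of all probes passed, and like partners counted as separate samples. Over pair means of all samples neither passed (limma adjusted p = 0.718 and 0.779), nor did any probe.

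Likeness to each gene was measured as the mean absolute difference between log2 profiles over the 12 samples, each profile centred on its own mean. The genes compared were the 580 others with a probe of their own that lay at the floor in at most 3 samples. All profiles share the same samples, and both genes were chosen for their difference between the groups, so genes with such a difference come first. For PRA1.B6 the 5 closest genes were AT5G39980, AT5G64150, AT3G56810, AT5G46560 and AT5G63390. Their mean differences from it were between 0.32 and 0.39 on the log2 scale, against a median of 1.16 over the genes compared. With values as deposited AT5G63390 was the closest of these 5, at 0.30, and AT3G56810 and AT5G46560 were at 0.52 and 0.56. On the normalized scale all 5 were, like PRA1.B6, lowest in normal-CO2 samples 5 and 6, which the choice by likeness on that scale favours.

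For SECE1 the closest gene was AT2G21530, at a mean difference of 0.19, against a median of 0.78 over the genes compared. AT2G40980, AT4G01810, SRX and AT5G34870 followed, at 0.25, 0.27, 0.29 and 0.30. SRX encodes sulfiredoxin, which repairs over-oxidized peroxiredoxins, and the other 4 are given only by locus in the annotation used. Without scaling the mean differences of AT2G40980, AT4G01810, SRX and AT5G34870 were 0.38, 0.37, 0.44 and 0.51, and that of AT2G21530 was 0.20.

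**Figure D5:**
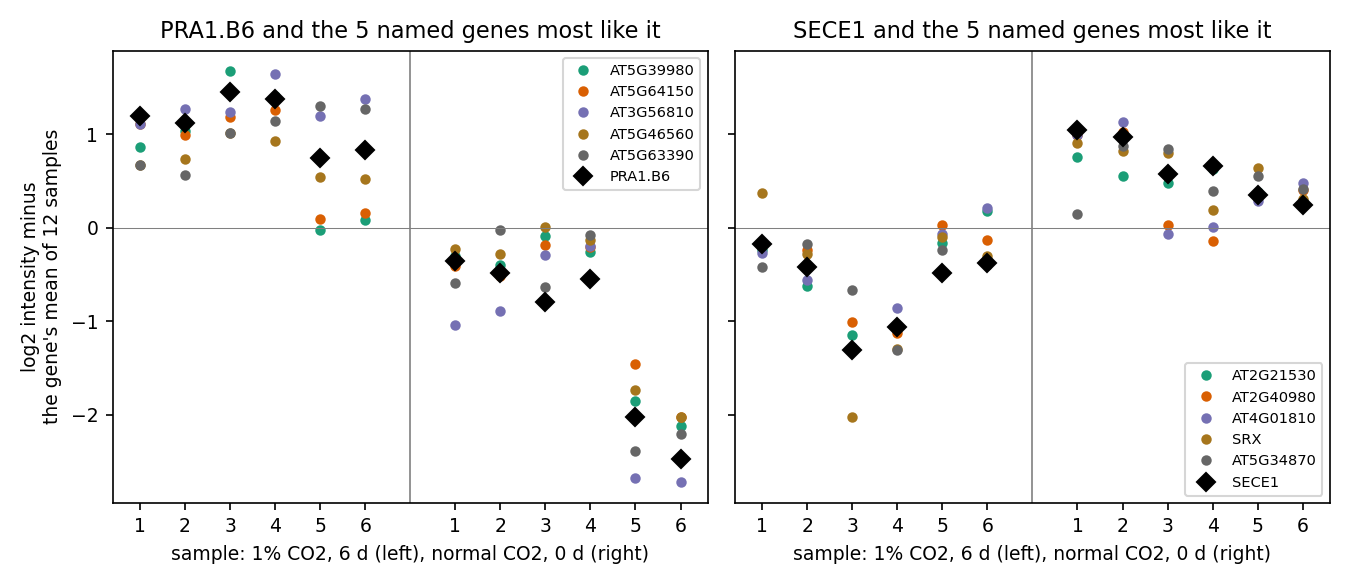
Log2 normalized intensity minus the gene's own mean over 12 samples (vertical axis) for PRA1.B6 (left, black diamonds) and SECE1 (right, black diamonds), each with the 5 named genes of closest profile (coloured dots), by sample number with 1% CO2 left of the line and normal CO2 right of it. The genes closest to PRA1.B6 lie at mean differences of 0.32 to 0.39, and those closest to SECE1 at 0.19 to 0.30. Those closest to PRA1.B6 drop furthest in normal-CO2 samples 5 and 6, as it does, which the choice by likeness favours.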

How the data were processed

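The authors deposited linear array intensities for 3439 probes in 12 samples. The unit was judged from the values, which are never negative, end at 100 and include exact zeros. The sources used here give no array type, background correction or scaling. Groups came from the labels. Intensities were quantile normalized with zeros kept at 0 (limma 3.58.1, R 4.3.3), raised to a floor of 0.0398 shared by all samples (the 1st percentile of positive values, taken where it is highest) and put on the log2 scale. A limma model with group as its term was fitted to 3349 probes, and p-values were adjusted by Benjamini-Hochberg over these. 90 probes never above the floor were left out. SEs come from this fit, except that of the ratio of the 2 genes, which is the plain SE of a difference of 2 group means. All SEs count the samples as independent, and are too small if partners in a pair are repeats. The procedure was tested on simulated data with independent samples, so that test says nothing on calls made where partners are alike. Probes were named by the platform annotation: 692 had 1 gene (690 matched RefSeq genes of TAIR10.1, used for names only), 870 several and 1877 none. The members, lists and tests were chosen with earlier results of these data known. Named genes are the members, listed genes with their own probe, and the 5 closest profiles. Alternatives covered scaling, floor, filter, repeats, variance model and samples left out. Precision is limited by the number of arrays.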

Additional observations from a re-analysis of the deposited data

Results flagged for a closer look

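In 26 groups of 6 values, covering the intensities of PRA1.B6, SECE1 and the other listed genes with their own probe, the ranks of both genes and their ratio, the highest or lowest sample was compared with its nearest neighbour. 2 groups had a gap above 0.625 of the whole range, and chance gives about 1 in 20 if values are independent, which the likeness within pairs goes against. Both of these groups held tied values, to which that rate does not apply. Neither concerned PRA1.B6 or SECE1. AT4G38490, listed with the second plastid Sec system, had high-CO2 sample 6 at -1.09 on the log2 scale while the other 5 lay between -4.65, the floor, and -3.42. PSBW had high-CO2 sample 2 at 4.96 while the other 5 shared 5.05 after quantile normalization.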

How the results depend on the processing

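PRA1.B6 stayed higher and SECE1 lower at high CO2 in every setting run, which the separate groups fix where samples are left out. In samples 5 and 6 of both groups alone the log2 differences were 3.03 for PRA1.B6, -0.73 for SECE1 and 4.02 for the change in their log2 ratio. Each moved by more than the pooled SD of single samples within a group (0.67, 0.39 and 0.47). That SD counts like partners as separate samples and is not the error of such a difference. Whether the values moved beyond noise was not tested. Leaving out 1 sample gave 1.96 to 2.38 for PRA1.B6, -1.37 to -1.14 for SECE1 and 3.37 to 3.64 for the change in the ratio. With an offset of 0.1 in place of the floor, which shrinks folds of dim probes by construction, the differences were 1.75 for PRA1.B6 and -1.03 for SECE1. The change in the ratio was 2.77 with that offset on quantile normalized values. On such values without the offset, an alternative chosen after seeing the data like the other likeness scalings, it was 3.51. The main value of 3.54 came from deposited intensities, where no floor was used. No other probe of either gene existed to be tried. The 418 probes passing (185 higher, 233 lower) were 391 as deposited (326 and 65) and 344 after division by the median (101 and 243). They were 1270 without samples 5 and 6 of both groups, in a fit that counted like partners as separate samples. Averaging pairs or treating them as a random block gave 0 in limma, with 408 and 511 at an unadjusted p under 0.05. Leaving out 1 sample gave 230 to 580, with 266, 242, 230 and 240 without high-CO2 samples 1 to 4 and 270 without normal-CO2 sample 5. AT4G38490 turned sign as deposited (0.0745) and without 1 sample in 6 of 12 cases (-0.61 to 0.36). PSBW turned after division by the median (-0.0773) and without samples 5 and 6 (-0.00826). The cause of these changes was not tested. With the sample number of the labels as a replicate block, 460 probes passed (222 higher, 238 lower). Deviations of same-numbered samples of the 2 groups correlated at -0.08 to 0.16, with 4 of 6 under 0.1, so the numbers were not taken to pair the samples. Samples 3 and 4 alone matched their own number best.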
